A study of Homo sapiens with 8 samples.

Results

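TNFSF10 encodes TRAIL, and the 9 genes described here are this death ligand, its 4 receptors TNFRSF10A, TNFRSF10B, TNFRSF10C and TNFRSF10D, the related death receptor FAS, and the proteins FADD, CASP8 and CFLAR that act directly beneath the receptors. They were chosen by gene symbol among 57445 genes of the deposited count table, and all 9 were found. TRAIL and FAS ligand bind receptors whose intracellular death domains recruit the adaptor FADD. FADD in turn gathers the initiator protease caspase-8, which is cleaved and starts apoptosis. CFLAR encodes c-FLIP, which sits in the same complex and restrains caspase-8, while the decoy receptors bind TRAIL without passing on a full death signal. TNFSF10 is also known as a gene that interferon induces in many cell types.

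The data are sequenced messenger RNAs from human breast carcinoma cells of the line MDA231-BrM2, which derives from MDA-MB-231 and colonises the brain. RNA was recovered by translating ribosome affinity purification (TRAP), in which polysomes carrying a GFP tag are pulled down with an anti-GFP antibody, so that RNA of the tagged carcinoma cells is enriched over that of their neighbours. The 8 libraries form 4 groups of 2: Cx43sh1 cells with astrocytes, Cx43sh2 cells with astrocytes, control hairpin cells with astrocytes, and control hairpin cells alone. Cx43sh1 and Cx43sh2 are called hairpin 1 and hairpin 2 below and deplete connexin 43, the gap junction protein encoded by GJA1. The cocultures held 1 astrocyte per carcinoma cell for 24 h. All groups share the same line, the TRAP tag and a hairpin; Cx43-depleted cells cultured alone are not part of the comparison, so that a direct effect of depletion and an effect on the response to astrocytes cannot be told apart. The astrocytes' species is not given in the sources used here. The study's title names gap junctions between carcinoma cells and astrocytes and a response to cytosolic DNA, and the comparisons below ask what astrocytes and connexin 43 depletion did to the death ligand and its receptors.

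The sequences shown here are the promoter windows of the members in which a short interferon-type element was found. The element searched was the ISRE-type motif, GAAA followed by 2 bases of any kind and GAAA, on both strands, and 3.57% of 35116 RefSeq promoter windows of 300 bases held at least 1 match. RefSeq windows were at hand for 5 of the 9 genes (12 windows in all, from 250 bases before to 50 bases after an annotated start): TNFSF10, FAS, FADD, CASP8 and CFLAR. A match was found in the TNFSF10 window and in 1 of 3 CASP8 windows, and none in the windows of FAS, FADD and CFLAR. Both are printed 5′ to 3′ on the gene's strand, up to 10 bases after the start, with the match in capitals. In GRCh38.p14 the stretches are chr3:172523421-172523680 on the minus strand for TNFSF10 and chr2:201233213-201233472 on the plus strand for CASP8.
TNFSF10: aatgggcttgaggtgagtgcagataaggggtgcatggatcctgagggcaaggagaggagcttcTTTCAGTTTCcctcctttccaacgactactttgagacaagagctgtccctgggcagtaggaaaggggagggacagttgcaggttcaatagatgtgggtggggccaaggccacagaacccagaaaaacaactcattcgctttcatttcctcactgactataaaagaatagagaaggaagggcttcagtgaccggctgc
CASP8: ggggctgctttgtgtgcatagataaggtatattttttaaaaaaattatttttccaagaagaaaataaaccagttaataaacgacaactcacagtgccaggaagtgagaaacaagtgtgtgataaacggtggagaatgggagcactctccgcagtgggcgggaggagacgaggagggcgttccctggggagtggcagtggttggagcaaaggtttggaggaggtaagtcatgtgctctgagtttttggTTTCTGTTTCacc
The TNFSF10 match lies 187 to 178 bases before the start, and the CASP8 match spans the start. A shorter GAS-type motif, TTCNNNGAA on either strand, occurred in 7.66% of all windows and, among the members, in the same CASP8 window, 200 to 192 bases before the start. These matches describe letters in the reference, and whether any protein binds them was not tested. Of the genes that hold them only TNFSF10 passed a test of change in the comparisons that follow.

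Gene counts ranged from 38219702 to 48997555 reads per library, and levels are given as reads per 1000000 reads assigned to genes, after trimmed-mean scaling (CPM). At these depths the floor that 3 reads set was 0.0624 to 0.0805 CPM. GJA1, the targeted gene, had 27.8 and 27.8 CPM with hairpin 1, 31.7 and 33.8 CPM with hairpin 2, 65.9 and 64.7 CPM in control cocultures, and 51.1 and 46.3 CPM in control cells alone. It was lower in the depleted cocultures than in the control cocultures by a log2 change of -1.11 (SE 0.0609, edgeR's quasi-likelihood test, adjusted p = 7.89e-06), and it was higher in control cocultures than in control cells alone (log2 change 0.42, adjusted p = 0.00665). The GJA1 rise was not called without control alone library 2 or without control coculture library 1, the highest adjusted p being 0.0621. Reads with more than 1 alignment made up 14.2% to 26.1% of a library's reads, the most in control coculture library 1. All 8 markers of the breast carcinoma line were detected in every library. Their summed level was 4371 to 4686 CPM with hairpin 1, 4256 to 4268 CPM with hairpin 2, 5215 to 5331 CPM in control cocultures and 4648 to 4941 CPM in cells alone. VIM and AXL were its largest parts and differed in opposite directions. VIM was at 2095 to 2175 CPM in control cocultures and 1318 to 1505 CPM in cells alone. AXL was at 1095 to 1257 CPM and 1418 to 1550.5 CPM in these groups. Of the 8 markers 2 rose and 0 fell between them, beside 11.7% of all tested genes called. With depletion 0 rose and 4 fell, beside 9.22%.

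TNFSF10 had the largest change of the 9 genes both with astrocytes and with connexin 43 depletion. It had 2.22 and 1.50 CPM in hairpin 1 cocultures (96 and 62 reads), 2.05 and 2.18 CPM in hairpin 2 cocultures (85 and 96 reads), 15.6 and 17.4 CPM in control cocultures (605 and 650 reads), and 1.27 and 1.56 CPM in control cells alone (54 and 75 reads). The control cocultures stood apart from all 6 other libraries, which lay close together. In control cocultures against control cells alone TNFSF10 was 11.6-fold higher (log2 change 3.54, SE 0.17, 95% interval 3.15 to 3.92, adjusted p = 2.9e-06), the 29th largest rise of 15806 genes tested. In depleted against control cocultures it fell by 3.05 on the log2 scale (SE 0.13, 95% interval -3.35 to -2.76, adjusted p = 1.39e-06), an 8.29-fold lower level and the 19th largest fall. The fall was present with each hairpin, with log2 changes of -3.14 for hairpin 1 (adjusted p = 7.87e-06) and -2.96 for hairpin 2 (adjusted p = 1.14e-05). These calls held in all 16 alternative analyses of each comparison. Both comparisons share the control coculture libraries, so a deviation of those libraries would move both.

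**Figure D1:**
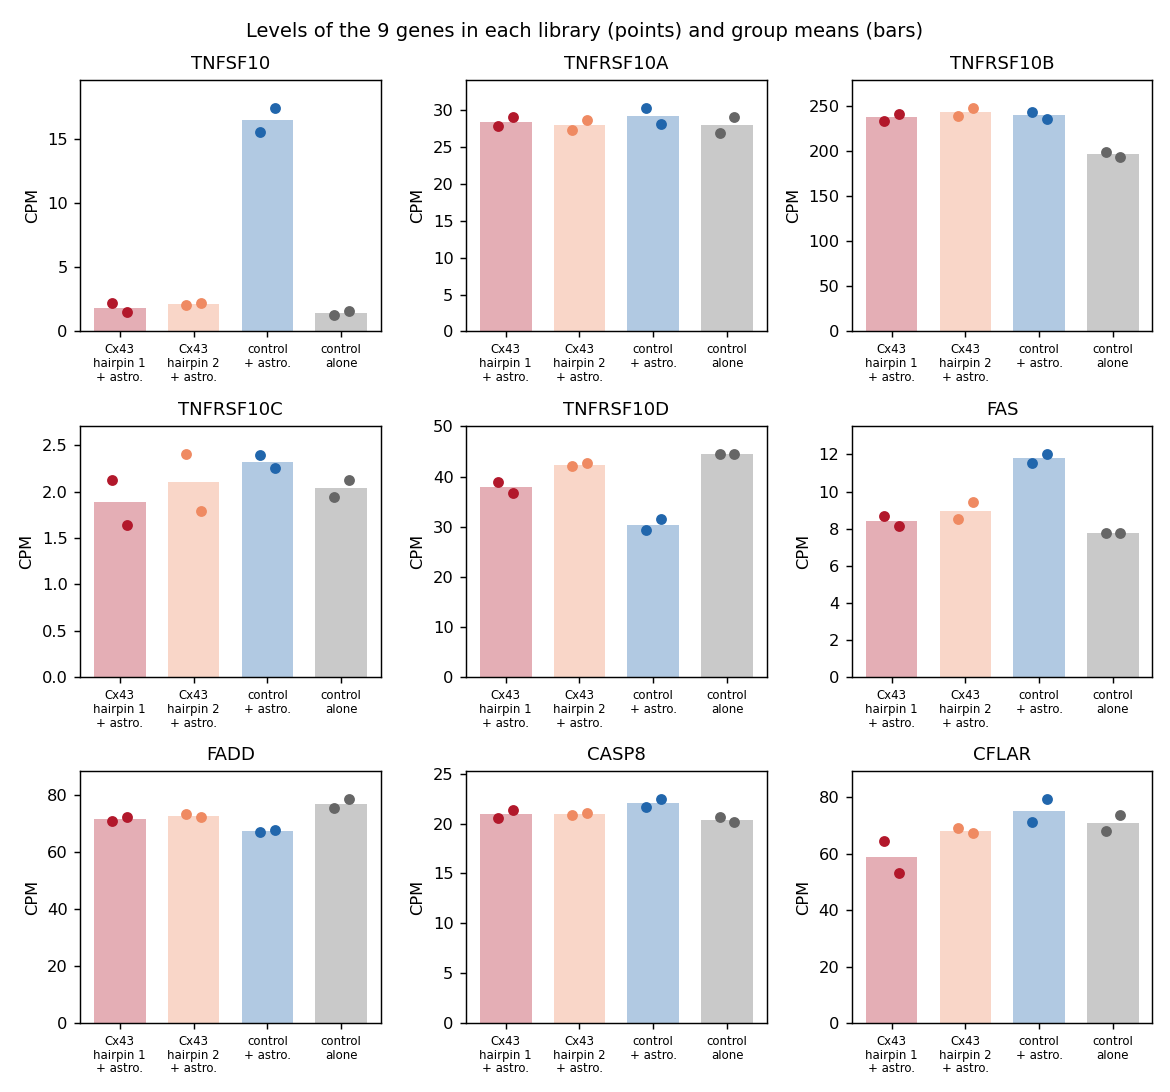
Level of each of the 9 genes in CPM (vertical axes, each from 0) by group; points are the 2 libraries of a group, bars their mean, and "astro." stands for astrocytes. TNFSF10 sits at 15.6 and 17.4 CPM in control cocultures and between 1.27 and 2.22 CPM in every other library.

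TNFSF10 in depleted cocultures was near its level in control cells alone, with all 4 depleted libraries covering 1.50 to 2.22 CPM against 1.27 and 1.56 CPM, so that the ranges overlapped. The log2 difference was 0.48 (95% interval 0.07 to 0.90, unadjusted p = 0.0273, adjusted p = 0.1), which did not pass the threshold of 0.05. It did pass with no filter on low counts or without hairpin 1 library 2, the lowest adjusted p being 0.0254; the interval allows a level up to 0.90 higher on the log2 scale. The hairpins did not differ detectably from each other in TNFSF10 (hairpin 2 minus hairpin 1, log2 difference 0.18, 95% interval -0.27 to 0.64, adjusted p = 0.81). In that comparison 0 of the 9 genes were called by edgeR's test, beside 5 of all 15806 genes (0.0316%, with 0.0253% higher and 0.00633% lower) and 1084 genes at an unadjusted p under 0.05. The only member among those was TNFRSF10D (unadjusted p = 0.0435), and no alternative analysis called a member.

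Of the 9 genes, 3 rose and 1 fell in control cocultures relative to control cells alone, where 11.7% of all tested genes were called (8.74% higher and 2.93% lower). The median log2 change of the 9 was 0.11, against -0.00256 over all genes tested. The genes that rose were TNFSF10, FAS and TNFRSF10B, and the gene that fell was TNFRSF10D. In depleted relative to control cocultures 1 rose, TNFRSF10D, and 2 fell, TNFSF10 and FAS, beside 9.22% of all tested genes (3.37% higher and 5.85% lower). Of all calls in that comparison 36.6% were higher, and 52.9% were with scaling to total counts alone. The median of the 9 was -0.07, against -0.00798 over all genes. Each hairpin by itself gave the same count of 1 gene higher and 2 lower. Of all genes, 7.82% were called for hairpin 1 (3.09% higher and 4.73% lower) and 4.16% for hairpin 2 (0.962% higher and 3.20% lower). For hairpin 1, 39.5% of the calls were higher, and 58.5% were with scaling to total counts alone.

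**Figure D2:**
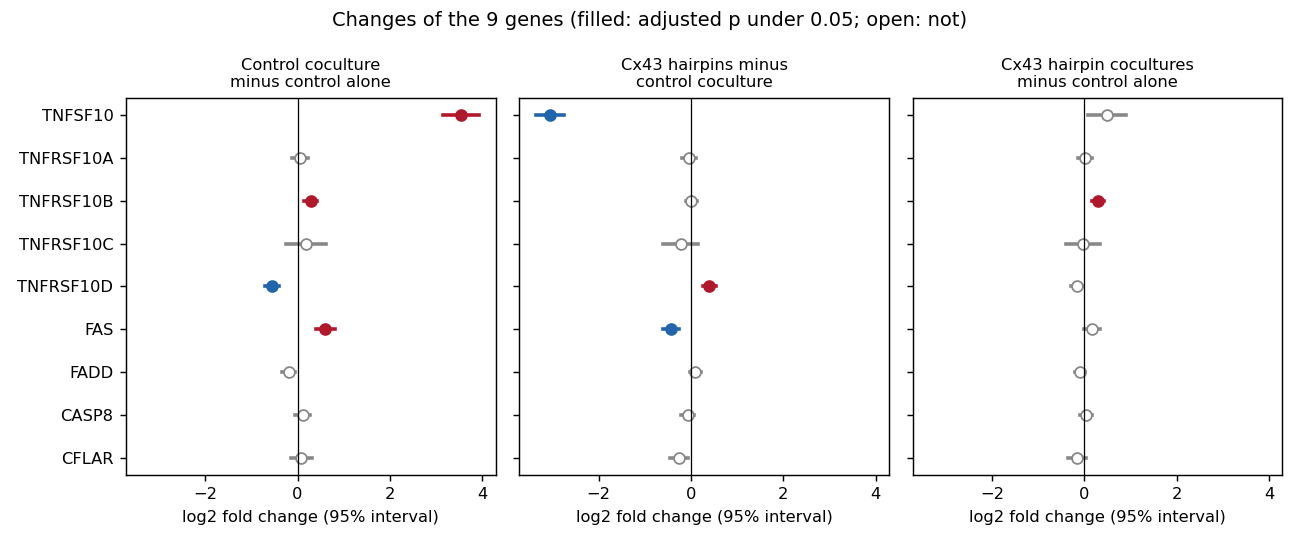
Log2 fold change (horizontal axis) with its 95% interval for each of the 9 genes in 3 comparisons; filled symbols passed an adjusted p of 0.05, open symbols did not, and red and blue mark higher and lower. TNFSF10 lies at 3.54 in control coculture minus control alone and at -3.05 in hairpins minus control coculture, and the next largest change is the 0.60 of FAS.

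Among the receptors that carry a full death domain, TNFRSF10B, which encodes the TRAIL receptor DR5, was higher in cocultures of every hairpin than in control cells alone. It had 233 and 241 CPM with hairpin 1, 239 and 248 CPM with hairpin 2, 244 and 235 CPM in control cocultures, and 199 and 194 CPM in control cells alone. All 6 coculture libraries were above both libraries of cells alone, and the coculture groups overlapped. It rose in control cocultures relative to cells alone by 0.29 on the log2 scale (SE 0.0622, 95% interval 0.14 to 0.43, adjusted p = 0.0202), which is 1.22-fold. It differed between depleted and control cocultures by 0.01 (95% interval -0.12 to 0.13, adjusted p = 0.967). In depleted cocultures against control cells alone, TNFRSF10B was the 1 member called, 0.29 higher (95% interval 0.17 to 0.41, adjusted p = 0.0103), beside 17.1% of all genes called (10.8% higher and 6.34% lower). The call for control cocultures against cells alone was lost when any 1 of 6 libraries was left out (either of control alone, of control coculture or of hairpin 2), the highest adjusted p being 0.137. The call for depleted cocultures against cells alone was lost without either control alone library or hairpin 2 library 2, the highest adjusted p being 0.0919.

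TNFRSF10A, which encodes the other death-domain TRAIL receptor, DR4, had 27.9 and 29.1 CPM with hairpin 1, 27.3 and 28.6 CPM with hairpin 2, 30.4 and 28.2 CPM in control cocultures, and 26.9 and 29.1 CPM in control cells alone. All 4 groups overlapped. Its log2 difference was 0.06 in control cocultures minus cells alone (95% interval -0.11 to 0.24, adjusted p = 0.648) and -0.05 in depleted minus control cocultures (95% interval -0.20 to 0.10, adjusted p = 0.678). These intervals leave room for changes of up to about 0.24 in size.

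FAS, the receptor of FAS ligand, had 8.70 and 8.16 CPM with hairpin 1, 8.51 and 9.42 CPM with hairpin 2, 11.5 and 12.0 CPM in control cocultures, and 7.76 and 7.76 CPM in control cells alone. The control cocultures were above all other libraries, and the depleted cocultures lay between them and the cells alone. The log2 difference of FAS between depleted cocultures and cells alone, 0.16, did not pass (95% interval -0.01 to 0.34, adjusted p = 0.175). FAS rose in control cocultures relative to cells alone by 0.60 on the log2 scale (SE 0.0893, 95% interval 0.40 to 0.81, adjusted p = 0.00326), a call kept in all 16 alternatives. It fell by 0.44 in depleted relative to control cocultures (SE 0.0761, 95% interval -0.61 to -0.27, adjusted p = 0.0101), with -0.48 for hairpin 1 (adjusted p = 0.0168) and -0.40 for hairpin 2 (adjusted p = 0.0446). Without either control coculture library the fall over both hairpins was not called, the highest adjusted p being 0.111, and the call was lost in 5 of 16 alternatives for hairpin 1 and in 9 for hairpin 2. FASLG, its ligand, had 0 to 2 reads in every library, at or under the floor, so no fold is given for it.

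The decoy receptors were unlike each other. TNFRSF10D, which encodes the decoy DcR2 with a shortened death domain, had 39.0 and 36.8 CPM with hairpin 1, 42.0 and 42.7 CPM with hairpin 2, 29.3 and 31.6 CPM in control cocultures, and 44.6 and 44.5 CPM in control cells alone. The control cocultures were below all other libraries, and the depleted cocultures were below the cells alone. It fell by 0.55 on the log2 scale in control cocultures relative to cells alone (SE 0.0694, 95% interval -0.71 to -0.39, adjusted p = 0.00136), a call kept in all 16 alternatives. It rose by 0.40 in depleted relative to control cocultures (SE 0.0612, 95% interval 0.26 to 0.54, adjusted p = 0.00607), with 0.32 for hairpin 1 (adjusted p = 0.0318) and 0.48 for hairpin 2 (adjusted p = 0.00684). Without control coculture library 1 the rise over both hairpins was not called (adjusted p = 0.0712), and the call was lost in 10 of 16 alternatives for hairpin 1 and in 3 for hairpin 2. Its difference between depleted cocultures and cells alone, -0.15, did not pass (95% interval -0.29 to -0.02, adjusted p = 0.104).

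TNFRSF10C, which encodes the lipid-anchored decoy DcR1, had few reads, with 2.13 and 1.64 CPM with hairpin 1, 2.41 and 1.80 CPM with hairpin 2, 2.39 and 2.25 CPM in control cocultures, and 1.95 and 2.12 CPM in control cells alone. It was read 68 to 102 times per library. Its log2 differences of 0.19 in control cocultures minus cells alone (95% interval -0.24 to 0.62) and -0.22 in depleted minus control cocultures (95% interval -0.60 to 0.15) were not called (adjusted p = 0.561 and 0.449), and the intervals hold changes of up to 0.62 in size. The 4 TRAIL receptor genes lie together on chromosome 8 and resemble each other in sequence. Reads with more than 1 alignment were counted apart from the genes, so reads that aligned to several of these genes were dropped. Reads given only 1 alignment could still have been assigned to the wrong copy. The separate levels of these genes are uncertain to that extent.

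Beneath the receptors no member passed the test in any comparison. FADD, the adaptor, had 70.9 and 72.2 CPM with hairpin 1, 73.3 and 72.2 CPM with hairpin 2, 67.2 and 67.7 CPM in control cocultures, and 75.5 and 78.5 CPM in control cells alone. Its control cocultures were the lowest libraries and its cells alone the highest, without overlap, but the log2 difference between them was only -0.19 (95% interval -0.33 to -0.05, adjusted p = 0.0766). CASP8, which encodes caspase-8, had 20.5 and 21.3 CPM with hairpin 1, 20.9 and 21.1 CPM with hairpin 2, 21.6 and 22.4 CPM in control cocultures, and 20.6 and 20.2 CPM in control cells alone. Its log2 differences were 0.11 in control cocultures minus cells alone (95% interval -0.05 to 0.27, adjusted p = 0.339) and -0.07 in depleted minus control cocultures (95% interval -0.21 to 0.06, adjusted p = 0.499).

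CFLAR, the inhibitor c-FLIP, had 64.4 and 53.3 CPM with hairpin 1, 69.1 and 67.3 CPM with hairpin 2, 71.3 and 79.3 CPM in control cocultures, and 68.0 and 73.9 CPM in control cells alone. Hairpin 1 library 2 was the lowest, and all 4 depleted libraries were below both control cocultures. The log2 difference of depleted minus control cocultures was -0.25 (95% interval -0.44 to -0.06, adjusted p = 0.105), which was called with no low-count filter and without hairpin 1 library 1, the lowest adjusted p being 0.0238. For hairpin 1 alone it was -0.36 (adjusted p = 0.0628), which was called with DESeq2, with no low-count filter and without hairpin 1 library 1, the lowest adjusted p being 0.00588. In control cocultures minus cells alone it was 0.09 (95% interval -0.14 to 0.31, adjusted p = 0.618). The antisense gene CFLAR-AS1 had 3 to 10 reads per library, against 2208 to 3552 for CFLAR. Over the 9 genes, 7 did not overlap between control cocultures and cells alone, beside 56.3% of all tested genes, and 6 did not overlap between the 4 depleted and the 2 control coculture libraries, beside 34.6%.

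The ligand and its receptors were then set against each other within each library, where library scaling cancels. For every 100 reads of the 4 TRAIL receptors together there were 0.735 and 0.485 TNFSF10 reads with hairpin 1, 0.659 and 0.680 with hairpin 2, 5.09 and 5.87 in control cocultures, and 0.464 and 0.579 in control cells alone. The ratio was 10.5-fold higher in control cocultures than in cells alone, and in depleted cocultures it was 0.116 of that in control cocultures. The groups did not overlap in either comparison, but an exact two-sided permutation test cannot go below p = 0.333 with 2 libraries against 2, or below p = 0.133 with 4 against 2, and gave those values. Against DR5 (TNFRSF10B), the receptor with the most reads, TNFSF10 had 0.952 and 0.620 reads per 100 with hairpin 1, 0.857 and 0.880 with hairpin 2, 6.38 and 7.41 in control cocultures, and 0.636 and 0.805 in control cells alone.

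Against the decoy TNFRSF10D the shift was larger, and that receptor moved the other way. There were 5.70 and 4.07 TNFSF10 reads per 100 TNFRSF10D reads with hairpin 1, 4.88 and 5.11 with hairpin 2, 53.1 and 55.2 in control cocultures, and 2.84 and 3.50 in control cells alone. On the log2 scale the change of TNFSF10 exceeded that of TNFRSF10D by 4.09 in control cocultures minus cells alone, that of TNFRSF10A by 3.48, of TNFRSF10C by 3.35, of TNFRSF10B by 3.26 and of FAS by 2.94. In depleted minus control cocultures the same differences were -3.46 for TNFRSF10D, -3.01 for TNFRSF10A, -2.83 for TNFRSF10C, -3.07 for TNFRSF10B and -2.62 for FAS. Within the TRAIL receptors, TNFRSF10D supplied 12.9% and 11.9% of receptor reads with hairpin 1, 13.5% and 13.3% with hairpin 2, 9.58% and 10.6% in control cocultures, and 16.4% and 16.5% in control cells alone. TNFRSF10B supplied 76.9% to 78.1% in depleted cocultures, 79.1% and 79.7% in control cocultures, and 71.9% and 73.1% in cells alone.

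**Figure D3:**
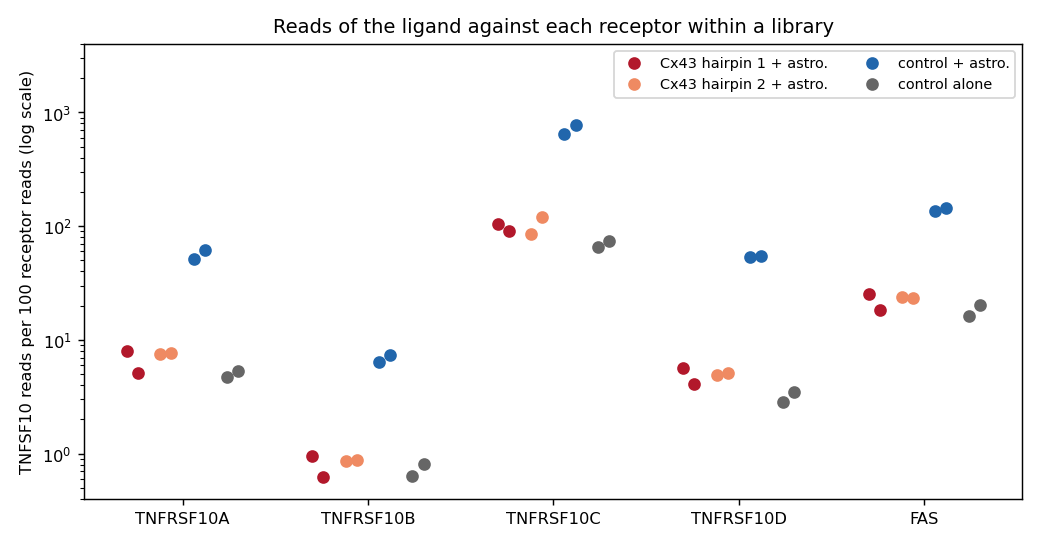
TNFSF10 reads per 100 reads of each receptor (vertical axis, log scale); each point is 1 library and colours mark the 4 groups. For each of the 5 receptors both control coculture points lie above the other 6 libraries, for instance 135 and 145 TNFSF10 reads per 100 FAS reads, against 16.3 and 20.1 in control cells alone.

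To compare levels between genes, CPM were divided by the length of each gene's merged exons (GENCODE v29). On this scale TNFSF10 was the lowest of the 9 genes in 3 groups, with 0.952 CPM per kb in hairpin 1 cocultures (SD 0.262, n = 2), 1.08 in hairpin 2 cocultures (SD 0.0485, n = 2) and 0.724 in control cells alone (SD 0.106, n = 2). In control cocultures it was the 5th of 9 at 8.45 CPM per kb (SD 0.684, n = 2), next to TNFRSF10D at 8.60 (SD 0.46). That closeness rests on the exons counted: with all annotated exons TNFSF10 was still the 5th but at 4.75 CPM per kb, against 8.60 for TNFRSF10D. TNFRSF10B was the highest, at 57.2, 58.7, 57.8 and 47.4 CPM per kb in hairpin 1, hairpin 2, control coculture and control alone groups, and FADD was next at 36.6 to 41.8. In cells alone TNFRSF10B and FADD change places when all annotated exons are counted. TNFRSF10A and TNFRSF10D lay at 8.60 to 12.6 CPM per kb, CASP8 at 5.18 to 5.60, FAS at 3.01 to 4.57 and TNFRSF10C at 1.10 to 1.35. With all annotated exons CASP8 was at 2.82 to 3.04 and FAS at 1.82 to 2.77 CPM per kb. CFLAR, at 2.85 to 3.65, is uncertain, since its merged exons of 20637 bases far exceed any usual transcript.

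The 5 genes whose levels over the 8 libraries were closest to those of TNFSF10, among 11786 candidates, were IFITM1, IFI27, DHX58, CXCL11 and BATF2. Closeness was the root mean square distance of centred log2(CPM + 0.5) values, and it was 0.157 for IFITM1, 0.168 for IFI27, 0.183 for DHX58, 0.217 for CXCL11 and 0.218 for BATF2. Their fitted log2 changes were 3.52, 3.26, 3.24, 5.16 and 3.39 in control cocultures minus cells alone, and -2.90, -2.94, -2.64, -3.78 and -2.80 in depleted minus control cocultures. The 0.5 added to CPM shrinks changes that start from low levels, so closeness does not mean equal fitted changes. For CXCL11 the fitted rise was 5.16, against 3.54 for TNFSF10. No other member of the death receptor group was among these 5 genes. Their smaller changes, the largest being the 0.60 of FAS, fixed this in advance.

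The wider pathway was described from 6 lists holding 47 further genes, of which 40 had enough reads to be tested. In control cocultures relative to cells alone 11 of these rose and 0 fell, and in depleted relative to control cocultures 1 rose and 10 fell. The median log2 change of the 40 was 0.12 and -0.05 in these comparisons. The share called was 27.5% in each, beside the 11.7% and 9.22% of all genes given above. By list, the genes that rose in control cocultures were 0 of 2 death ligands, 1 of 4 receptors and 2 of 8 genes of the death-inducing complex. A further 2 of 11 caspases and mitochondrial factors, 3 of 9 inhibitors and 3 of 6 genes of the necroptosis list rose. Those 3 of the necroptosis list were MLKL and the ubiquitin ligase subunits RNF31 and RBCK1. The genes that fell with depletion were 0, 0, 3, 2, 3 and 2 in the same order, and the gene that rose was a receptor.

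Among receptors and complex members, TNFRSF1A, the main TNF receptor, rose by 0.36 on the log2 scale in control cocultures relative to cells alone (adjusted p = 0.00866) and differed by -0.04 between depleted and control cocultures (adjusted p = 0.671). TNFRSF11B, which encodes the soluble TRAIL-binding decoy osteoprotegerin, was at 10.5 to 11.2 CPM with hairpin 1, 9.62 to 10.6 CPM with hairpin 2, 7.71 to 8.27 CPM in control cocultures and 6.70 to 6.92 CPM in cells alone. It rose by 0.39 in depleted relative to control cocultures (adjusted p = 0.022). CASP10, an initiator caspase that lies between CFLAR and CASP8 on chromosome 2, rose by 0.60 in control cocultures (adjusted p = 0.00966) and fell by 0.51 with depletion (adjusted p = 0.0137), while its neighbours were not called. TRADD, the adaptor of TNFRSF1A, rose by 0.30 (adjusted p = 0.0421) and fell by 0.27 (adjusted p = 0.0426). DEDD2, a protein with a death effector domain, fell by 0.28 with depletion (adjusted p = 0.0387).

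Further down, BAK1, which opens the mitochondrial outer membrane, rose by 0.40 in control cocultures relative to cells alone (adjusted p = 0.00339) and fell by 0.27 in depleted relative to control cocultures (adjusted p = 0.0165). Of 9 genes that hold death back, 3 moved in the same directions. MCL1, an anti-apoptotic BCL2 relative, rose by 0.81 (adjusted p = 6e-05) and fell by 0.35 (adjusted p = 0.00544). TNFAIP3, the ubiquitin-editing enzyme A20, rose by 0.83 (adjusted p = 0.000578) and fell by 0.41 (adjusted p = 0.0137). BIRC3, the inhibitor cIAP2, rose by 0.23 (adjusted p = 0.0467) and fell by 0.47 (adjusted p = 0.0012).

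In the necroptosis list, MLKL, which permeabilises the plasma membrane, rose by 0.41 (adjusted p = 0.00869) and fell by 0.35 (adjusted p = 0.0117). RNF31, the catalytic subunit of the linear ubiquitin ligase, rose by 0.55 (adjusted p = 0.00877) and fell by 0.55 (adjusted p = 0.0057). RBCK1, another subunit, rose by 0.32 (adjusted p = 0.0164) and differed by -0.12 with depletion (adjusted p = 0.24). Among the calls in control cocultures, those of BAK1, MCL1 and TNFAIP3 were kept when any 1 library was left out. Of the 11 in depleted cocultures only that of BIRC3 was. The rise of BIRC3 in control cocultures was lost in 12 of 16 alternatives, the rise and the fall of TRADD in 11 each, and the fall of DEDD2 in 10, and other scalings or filters were among these.

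**Figure D4:**
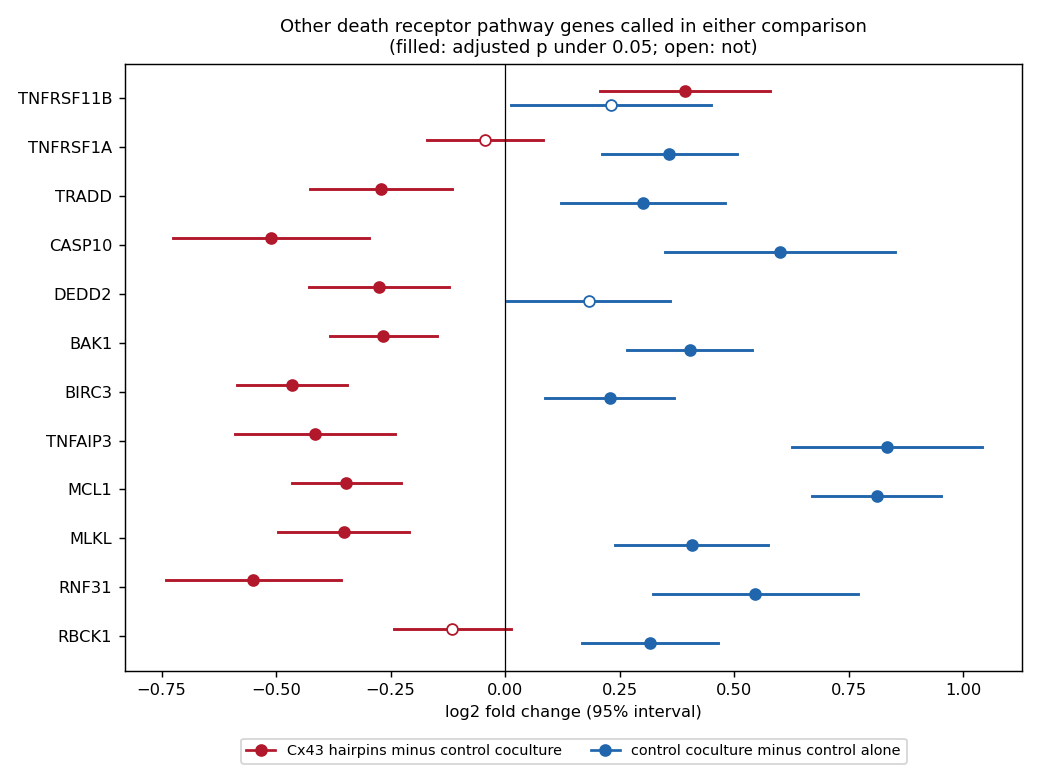
Log2 fold change (horizontal axis) with its 95% interval for 12 pathway genes outside the group of 9 that were called in either comparison; red is Cx43 hairpins minus control coculture, blue is control coculture minus control alone, and open symbols did not pass an adjusted p of 0.05. TNFAIP3 and MCL1 have the largest rises, 0.83 and 0.81, and only TNFRSF11B lies above 0 in red among the filled symbols.

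RNA of other cells could enter the pull-down, and in bulk libraries fewer cells of a type and less RNA per cell cannot be told apart. The summed level of 10 astrocyte markers was 63.1 to 71.7 CPM with hairpin 1, 57.8 CPM in both hairpin 2 libraries, 69.2 to 70.4 CPM in control cocultures and 51.1 to 55.0 CPM in cells alone. Most of this sum was SOX9, which had 47.4 to 48.1 CPM in control cocultures and already 35.6 to 39.5 CPM in cells alone. GJB6 and S100B had 3 reads or fewer throughout. The sum of 10 microglial and macrophage markers was 132 to 143 CPM with hairpin 1, 151 CPM with hairpin 2, 147 to 149 CPM in control cocultures and 86.7 to 87.5 CPM in cells alone. It was nearly all LAPTM5, and AIF1, CX3CR1, TYROBP, C1QA and C1QB had 3 reads or fewer. Single markers differed from the sums. SLC1A3, an astrocyte glutamate transporter, was at 3.57 to 3.65 CPM with hairpin 1, 3.89 to 4.10 CPM with hairpin 2, 5.01 to 5.61 CPM in control cocultures and 2.67 to 3.04 CPM in cells alone. CD68, a macrophage marker, was at 2.08 to 2.61 CPM with hairpin 1, 1.83 to 1.96 CPM with hairpin 2, 3.70 to 3.84 CPM in control cocultures and 2.18 to 2.72 CPM in cells alone. Both were thus highest in control cocultures, as TNFSF10 was, but GFAP and LAPTM5 of the same lists were not. GFAP was at 16.5 to 16.9 CPM with hairpin 1, 11.7 to 12.2 CPM with hairpin 2, 12.8 to 13.8 CPM in control cocultures and 8.53 to 8.80 CPM in cells alone. LAPTM5 was at 128 to 139 CPM with hairpin 1, 148 CPM with hairpin 2, 141 to 144 CPM in control cocultures and 83.0 to 84.6 CPM in cells alone. In all groups 9 of 10 T and NK cell markers had 3 reads or fewer, the summed level being 5.81 to 8.57 CPM, almost all from CD8A. Of 8 endothelial markers 7 were found, with a summed level of 9.90 to 10.7 CPM in depleted cocultures, 12.2 to 13.0 CPM in control cocultures and 8.86 to 11.2 CPM in cells alone. The part of these cells in the changes of TNFSF10, FAS, TNFRSF10D and TNFRSF10B was not tested.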

How the data were processed

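Messenger RNA bound to tagged polysomes was sequenced from 8 libraries. The authors' deposited table is labelled as normalized counts, but it holds whole numbers per gene and its library totals differ. Its values were therefore treated as read counts that are not normalized. Per the submitters' processing notes the tools were TopHat2, HTSeq and DESeq2 and the build was hg19; their settings, the annotation and the strand setting are not given in the sources used here. Entries of the counter that name no gene (ambiguous, not unique, not aligned) were left out of library sizes: reads in no feature were 3.77% to 4.53% of a library's reads and ambiguous ones 2.63% to 3.2%. The series' design calls the replicates independent without saying what was separate, so p-values measure the spread between these libraries.

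The 15806 genes averaging 10 or more reads per library were scaled by TMM (factors 0.975 to 1.03) and tested in 1 fit of all 4 groups with edgeR 4.0.16 in R 4.3.3, by the quasi-likelihood test with Benjamini-Hochberg adjustment over all tested genes and a threshold of 0.05. The common biological coefficient of variation was 7.66%. The scripts were tested on simulated data. For ligand against receptor a limma fit over all genes had been planned; its p-values were dropped because every difference shares the TNFSF10 counts, and log2 differences (0.5 added to counts), ratios per library and exact permutation tests are given. Replicate numbers were not used to pair the libraries in the main fit, since same-numbered libraries did not deviate together across all groups. Alternatives were DESeq2 1.42.0, limma-voom (limma 3.58.1), other scalings and filters, a replicate block, only the groups compared, and each library left out.

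The 9 genes, the pathway and marker lists and the tests were chosen with earlier results of these data known. Values are given for all 9 genes, for GJA1, for pathway genes with the smallest p in each list (up to 6 per list), for the 5 genes most like TNFSF10 among protein-coding genes with a mean of at least 50 reads in some group, and for markers; 1 pathway gene is counted but not reported here. RefSeq sequences are from GRCh38.p14, and no coordinate of the counted genes is given.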

Additional observations from a re-analysis of the deposited data

How the results depend on the processing

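The changes of TNFSF10, FAS and TNFRSF10D in control cocultures minus control cells alone, and of TNFSF10 in depleted minus control cocultures, were called under all 16 alternatives. No called result changed direction. Differences near 0 that were not called did change sign in places, such as that of TNFRSF10A in control cocultures minus cells alone (-0.0054 to 0.1112). The number of the 9 genes called was 3 to 4 for control cocultures minus cells alone (4 as reported). For both hairpins minus control coculture it was 1 to 4 on leaving out 1 library (3 as reported; 1 without control coculture library 1) and 4 with no low-count filter. For hairpin 1 it was 1 to 3 on leaving out 1 library, 1 with the replicate block, 1 with only the groups compared and 4 with DESeq2 or with no low-count filter, which add CFLAR (3 as reported), and for hairpin 2 it was 1 to 3 (3 as reported). For depleted cocultures minus cells alone it was 0 to 2 on leaving out 1 library and 2 with no low-count filter (1 as reported). The cause of these differences was not tested. Same-numbered libraries did not deviate together across all groups. The correlation of library 1 minus library 2 differences was 0.315 for control alone with control coculture and 0.212 for hairpin 1 with hairpin 2. It was negative for the other pairs of groups, down to -0.562 for control coculture with hairpin 1. With the replicate block TNFRSF10B was no longer called in control cocultures minus cells alone, and the count of all genes called was 1160 there and 700 for both hairpins, against 1844 and 1457. It was 446 for hairpin 1, 319 for hairpin 2 and 1502 for depleted cocultures minus cells alone, against 1236, 658 and 2709. With no low-count filter 2805 genes were called in control cocultures minus cells alone, 2269 for hairpin 1, 1191 for hairpin 2 and 4117 for depleted cocultures minus cells alone. With only the groups compared 233 genes were called for hairpin 1. On leaving out 1 library the counts ran from 738 to 2589, from 346 to 2311 for both hairpins, from 281 to 2407 for hairpin 1, from 150 to 1097 for hairpin 2, and from 573 to 4723 for depleted cocultures minus cells alone. The difference of TNFSF10 and receptor changes kept its direction throughout: over the 5 receptors it ran from 2.79 for FAS to 4.24 for TNFRSF10D in control cocultures minus cells alone, and from -3.58 for TNFRSF10D to -2.50 for FAS in depleted minus control cocultures. That direction restates the TNFSF10 changes of 3.54 and -3.05, since the largest receptor change was the 0.60 of FAS. It is not a separate result. With 2 libraries a group, changes as small as those of CASP8 or TNFRSF10A were not detectable, and for TNFRSF10C its 68 to 102 reads limit the precision. Floors cover counting error only.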

Other observations

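Depleted cocultures were also set against control cells alone for the wider pathway, where neither astrocyte presence nor depletion is separated from the other. Of the 40 tested genes outside the group of 9, 7 rose and 2 fell, which is 22.5%, beside 17.1% of all tested genes (10.8% higher and 6.34% lower). MCL1 was 0.46 higher on the log2 scale (SE 0.054, adjusted p = 0.00138) and TNFRSF11B 0.62 higher (SE 0.0821, adjusted p = 0.00244), and these 2 calls were kept when any 1 library was left out. TNFAIP3 was 0.42 higher (adjusted p = 0.011), XIAP, a caspase inhibitor, 0.37 higher (adjusted p = 0.0109) and TNFRSF1A 0.31 higher (adjusted p = 0.00885). BIRC3 was lower by a log2 change of -0.24 (adjusted p = 0.0195), with 311 to 313 CPM with hairpin 1, 331 to 337 CPM with hairpin 2 and 370 to 391 CPM in control cells alone. TNFSF12, which encodes the ligand TWEAK, was measurable at 12.3 to 13.3 CPM with hairpin 1, 13.7 to 15.7 CPM with hairpin 2, 16.0 to 17.3 CPM in control cocultures and 13.5 to 14.4 CPM in cells alone.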
